A study of Mus musculus with 20 samples.

Results

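The SLC25 genes encode the mitochondrial carriers, and they were taken here as every protein-coding gene with a mouse symbol of the form Slc25a followed by a number in GENCODE M21, matched to the Ensembl identifiers of the count matrix. The rule gave 47 genes of the 55401 in the matrix, and 39 had enough counts to enter the tests, which covered 13626 genes. Gastrocnemius, a calf muscle of mixed fibre type in the hind limb, had been sequenced from 20 aged C57BL/6 mice. The treated group of 10 mice received Haenkenium (HK), a standardised extract of the plant Salvia haenkei, at 0.5 mg/kg/day in the drinking water for 4 months from 20 months of age. The untreated group of 10 mice received drinking water, and both groups were 24 months old at the end. Each group held 5 males and 5 females. The labels give 2 experimental batches, the first with 8 mice (2 of each sex and treatment) and the second with 12 (3 of each sex and treatment).

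Mitochondrial carriers are small membrane proteins of a shared fold, most of which sit in the inner mitochondrial membrane and exchange one metabolite for another. They bring ADP and phosphate to the ATP synthase and return ATP to the cytosol, move the reducing equivalents of cytosolic NADH and the acylcarnitines of fat oxidation, and supply the matrix with amino acids, cofactors, nucleotides and iron. In skeletal muscle the ADP/ATP carrier is among the most abundant proteins of the mitochondrion.

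The libraries held 13900180 to 30469644 counts. Mice of one sex, treatment and batch differed from each other by 8.06 to 49.7 times the variance that counting alone would give. The 20 libraries were therefore kept as separate samples, and p-values set differences against the spread between these mice. The tissue label held by its markers, as 7 muscle fibre genes summed to 118908 to 163742 counts-per-million (CPM, normalised by the trimmed mean of M-values) over the mice. In whole muscle, fewer cells of a type and less RNA per cell cannot be told apart.

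Levels between genes were compared as transcripts-per-million (TPM), which divide by gene length. Slc25a4, the ADP/ATP carrier of heart and muscle (ANT1), was at 4084 ± 291 TPM (SD, n = 20 mice), with a range of 3441 to 4649. It made up 74.7% of the summed level of the family, and 72.0% to 77.8% in single mice. Slc25a4 therefore outweighed all other carriers together in every mouse, and its position is chr8:46206797-46211284 on the minus strand (GRCm38). Slc25a3, the phosphate carrier that supplies the ATP synthase, followed at 347 ± 39.7 TPM. Slc25a11, the 2-oxoglutarate/malate carrier of the malate-aspartate shuttle, was at 314 ± 33.4 TPM. Slc25a12, the calcium-binding aspartate/glutamate carrier aralar of the same shuttle, was at 193 ± 22.2 TPM. These 4 genes were the only members above 100 TPM on average, and the shuttle and dicarboxylate carriers together took 9.44% of the family's level. The symbol rule does not count the uncoupling proteins Ucp1, Ucp2 and Ucp3, and Ucp3 averaged 153 TPM. Family shares here are shares of the counted genes.

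**Figure D1:**
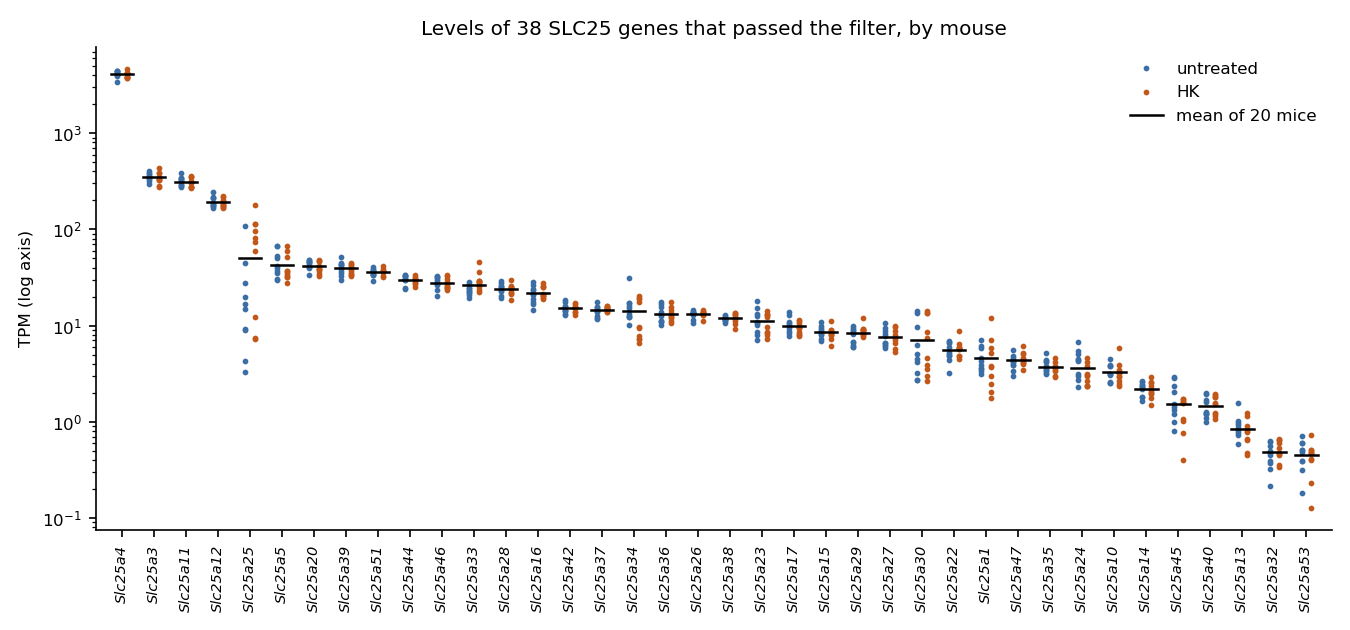
Levels of 38 of the 39 SLC25 genes that passed the filter, in TPM on a log axis, with 1 point for each of the 20 mice and the genes ordered by mean level. Slc25a4 stands at 3441 to 4649 TPM above all others, and Slc25a25 covers the widest span of the higher genes, 3.33 to 180 TPM.

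The order of the leading genes was fixed only in places. Slc25a4 exceeded Slc25a3 in 20 of 20 mice with a ratio of the means of 11.8, and Slc25a11 exceeded Slc25a12 in 20 of 20 mice with a ratio of 1.63. Slc25a3 and Slc25a11 overlapped, and Slc25a3 was the higher in 13 of 20 mice. The next 5 places by mean level did not separate from each other. They went to Slc25a25, a calcium-regulated ATP-Mg/phosphate carrier (50.1 ± 50.5 TPM), Slc25a5, the ADP/ATP carrier of dividing and many other cells (43.1 ± 13.4 TPM), Slc25a20, the carnitine/acylcarnitine carrier (41.7 ± 5.06 TPM), Slc25a39, a glutathione carrier (39.4 ± 5.34 TPM), and Slc25a51, the NAD carrier (36 ± 2.97 TPM). Slc25a25 exceeded Slc25a5 in 9 of 20 mice, Slc25a5 exceeded Slc25a20 in 8, Slc25a20 exceeded Slc25a39 in 13 and Slc25a39 exceeded Slc25a51 in 12. Slc25a12 lay above Slc25a25 in 19 of 20 mice, and Slc25a51 lay above Slc25a44, the next below it, in 20 of 20 with a ratio of 1.21. By its median of 24 TPM Slc25a25 would stand lower, below Slc25a46 at 27.5, Slc25a33 at 24.9 and Slc25a28 at 24.4 TPM. Slc25a5 has processed pseudogene copies that can take or lend reads, so its level is uncertain. With coding length in place of exon length the share of Slc25a4 was 67.9%, Slc25a25 was 7th and Slc25a5 was 16th.

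The other roles stood lower. The cofactor carriers summed to 160 TPM and 2.94% of the family, with Slc25a39 and Slc25a51 ahead of Slc25a16, which is linked to coenzyme A (21.8 TPM). The amino acid carriers took 1.19%, and Slc25a44, the carrier of branched-chain amino acids, led them at 29.8 ± 2.93 TPM. The pyrimidine nucleotide carriers Slc25a33 (26.5 ± 5.91 TPM) and Slc25a36 (13.3 TPM) took 0.73%, and the mitoferrins, which import iron, took 0.71%, with Slc25a28 at 24.1 ± 3.06 TPM above Slc25a37 at 14.6 TPM. The uncoupling-like carriers that the symbol rule counts took 0.31%, and Slc25a30 was at 7.02 ± 4.41 TPM. The ATP-Mg/phosphate carriers took 1.18%, most of it Slc25a25.

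Of the 8 genes that did not pass the filter, Slc25a31, the ADP/ATP carrier of testis, and Slc25a54 had 0 counts in 20 of 20 mice, which allows up to 0.00817 CPM over all libraries. The ornithine carrier Slc25a2 had 78 counts in all, the glutamate carrier Slc25a18 had 32, Slc25a43 had 25, the oxoadipate carrier Slc25a21 had 14, Slc25a48 had 10 and Slc25a41 had 9. Such limits cover counting error only.

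The spread left after batch, sex and treatment were fitted also ordered the carriers. Among members of at least 1 CPM the smallest values, as an SD of log2 CPM, included those of Slc25a51 (0.11) and Slc25a44 (0.11). It was largest for Slc25a25 (0.84), Slc25a34 (0.58) and Slc25a45 (0.57). Slc25a25 averaged 14 TPM in batch 1 and 74.1 TPM in batch 2.

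Slc25a25 lies at chr2:32414487-32451445 on the minus strand of GRCm38 and encodes a carrier that exchanges ATP-Mg for phosphate when cytosolic calcium rises. RefSeq (GRCm38.p6) lists 3 start sites for it, and the 250 bases before each are shown, since the gene varied more between mice than any other well-covered carrier and a cyclic AMP response element (CRE) stands before 1 of them. Capitals mark matches to the CRE letters TGACGTCA and to the CCAAT box on either strand. The first window, chr2:32451471-32451720, ends at the outermost start. The second, chr2:32431152-32431401, lies inside the gene and shares 18 bases with an exon. The third, chr2:32424067-32424316, lies inside the gene and shares 0 bases with its exons.
Slc25a25 outermost start: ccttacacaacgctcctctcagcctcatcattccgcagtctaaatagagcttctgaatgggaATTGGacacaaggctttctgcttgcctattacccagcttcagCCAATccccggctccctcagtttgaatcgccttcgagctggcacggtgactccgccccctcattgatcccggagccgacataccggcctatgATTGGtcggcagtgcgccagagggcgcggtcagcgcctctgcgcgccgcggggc
Slc25a25 middle start: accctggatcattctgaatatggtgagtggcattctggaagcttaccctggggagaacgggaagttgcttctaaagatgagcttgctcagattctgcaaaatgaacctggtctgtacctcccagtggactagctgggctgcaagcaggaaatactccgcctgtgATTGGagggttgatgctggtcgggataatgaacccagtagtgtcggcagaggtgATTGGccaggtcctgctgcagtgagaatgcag
Slc25a25 innermost start: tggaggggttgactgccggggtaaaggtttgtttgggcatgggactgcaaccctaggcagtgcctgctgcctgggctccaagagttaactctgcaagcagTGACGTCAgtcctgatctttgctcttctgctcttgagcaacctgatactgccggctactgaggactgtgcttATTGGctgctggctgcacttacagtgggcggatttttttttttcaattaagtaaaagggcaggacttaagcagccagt

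The CRE of the third window began 150 bases before its start site, and CCAAT boxes stood at 188, 146 and 54 bases before the first start, at 86 and 32 before the second and at 78 before the third. The full CRE was found in 508 of the 32851 promoter windows of all genes (1.55%) and in 2 of the 46 windows of the SLC25 genes (4.35%), those of Slc25a25 and the pyrimidine nucleotide carrier Slc25a36. These are letter matches, and the counts, which are summed over a gene, do not show which start was used.

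In the untreated males Slc25a25 was at 9.45 and 13.1 CPM in batch 1 and at 79.0, 54.4 and 47.6 CPM in batch 2. The untreated females were at 23.3 and 22.5 CPM in batch 1 and at 39.1, 125 and 297 CPM in batch 2. The mice of batch 2 lay above those of batch 1 in both sexes, and the untreated males of batch 1 were the lowest of all 20. In the HK males the values were 22.5 and 20.7 CPM in batch 1 and 506, 329 and 226 CPM in batch 2. The HK females were at 155 and 32.2 CPM in batch 1 and at 317, 252 and 225 CPM in batch 2. Batch 2 was again the higher in both sexes. Treated and untreated mice of the same sex and batch did not overlap in either sex of batch 1 or in the males of batch 2. They overlapped in the females of batch 2, where 1 untreated mouse at 297 CPM lay within the treated range. Each comparison set 2 mice against 2 in batch 1 and 3 against 3 in batch 2, so separation can easily arise without an effect. The share of all genes that separated in these groups was not counted.

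**Figure D2:**
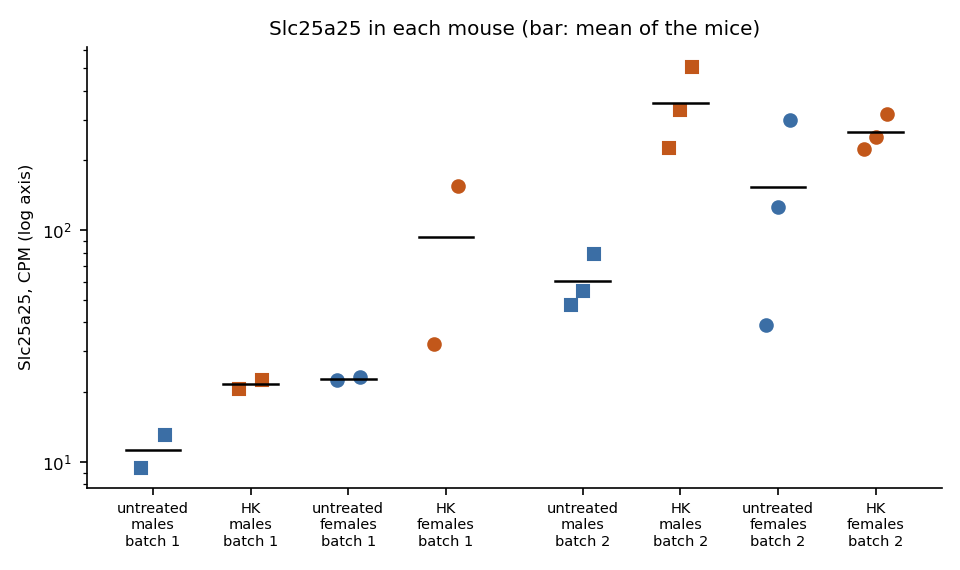
Slc25a25 in CPM on a log axis, with 1 point per mouse and a bar at the mean of each group of 1 batch, sex and treatment. Treated mice lie above untreated ones in batch 1 and in the males of batch 2, whereas the untreated female at 297 CPM lies among the treated females of batch 2.

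Averaged over sex and batch, Slc25a25 was at 208 ± 157 CPM with HK (20.7 to 506, median 225, n = 10) and at 71.1 ± 86.8 CPM without (9.45 to 297, median 43.3, n = 10). The fitted difference was 1.72 ± 0.36 (SE) on the log2 scale, or 3.30-fold, in a model with batch, sex and treatment. Its unadjusted p was 9.38e-05 and its p adjusted over all 13626 genes was 0.358 (edgeR, quasi-likelihood test, Benjamini-Hochberg), so it was not called. The Wald test of DESeq2 on the same counts gave a log2 difference of 1.73 with an adjusted p of 0.00764, and it called 7 of the 9128 genes to which it gave an adjusted p (0.0767%). The call for Slc25a25 therefore depended on the test, and its direction was positive in every fit that was made.

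The batches gave the same direction by themselves, with a log2 difference of 1.56 (unadjusted p = 0.0049) in batch 1 and 1.67 (unadjusted p = 0.00297) in batch 2 by edgeR. The difference was 1.97 in males alone and 1.26 in females alone, and leaving out 1 mouse at a time gave 1.36 to 1.97. The difference between the sexes in the effect of HK was 0.70 ± 0.71 on the log2 scale (unadjusted p = 0.335, edgeR), and that between the batches was 0.17 ± 0.74 (unadjusted p = 0.822). Neither was past its error, which left room for effects of either size. Exons of Slc25a25 share 4.8% of their length with Naif1 on the other strand, which averaged 72.2 counts against 2357 for Slc25a25.

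The 5 genes whose residuals followed Slc25a25 most closely over the 20 mice, among 12071 genes of at least 1 CPM, were Acot2, an acyl-CoA thioesterase (Pearson r = 0.82), Tob2, an antiproliferative regulator (0.81), 4632428C04Rik (0.81), Sik1, a kinase whose gene is induced by cyclic AMP (0.81), and B9d2, a ciliary protein (0.78). Among the other carriers the highest were Slc25a20 at 0.76 and Slc25a34 at 0.65, and the lowest were the citrate carrier Slc25a1 at -0.57 and Slc25a23 at -0.42. These values describe 20 libraries after batch, sex and treatment were fitted, share library depth, and carry no test. Tob2 and Sik1 had log2 differences with HK of 0.84 and 1.15, whereas those of B9d2, 4632428C04Rik and Acot2 were 0.09, -0.03 and -0.17. None of the 5 was called (adjusted p of 0.358 or more, edgeR).

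Between treatments, 0 of the 39 carriers were called at an adjusted p of 0.05 by edgeR, as were 0% of all genes. At an unadjusted p of 0.05 the number was 4 of 39, beside 6.13% of all genes tested. Of these, 3 had higher values with HK, beside 2.78% of all genes, and 1 had lower values, beside 3.35%. Over the 39 carriers 20 differences were positive and 19 negative, with a median of 0.00 on the log2 scale, and the median size was 0.06 beside 0.07 for all genes. The family's summed level was 5431 ± 381 TPM with HK and 5508 ± 367 without. The leading carriers Slc25a4, Slc25a3, Slc25a11 and Slc25a12 each had a log2 difference of -0.01 or nearer to 0.

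**Figure D3:**
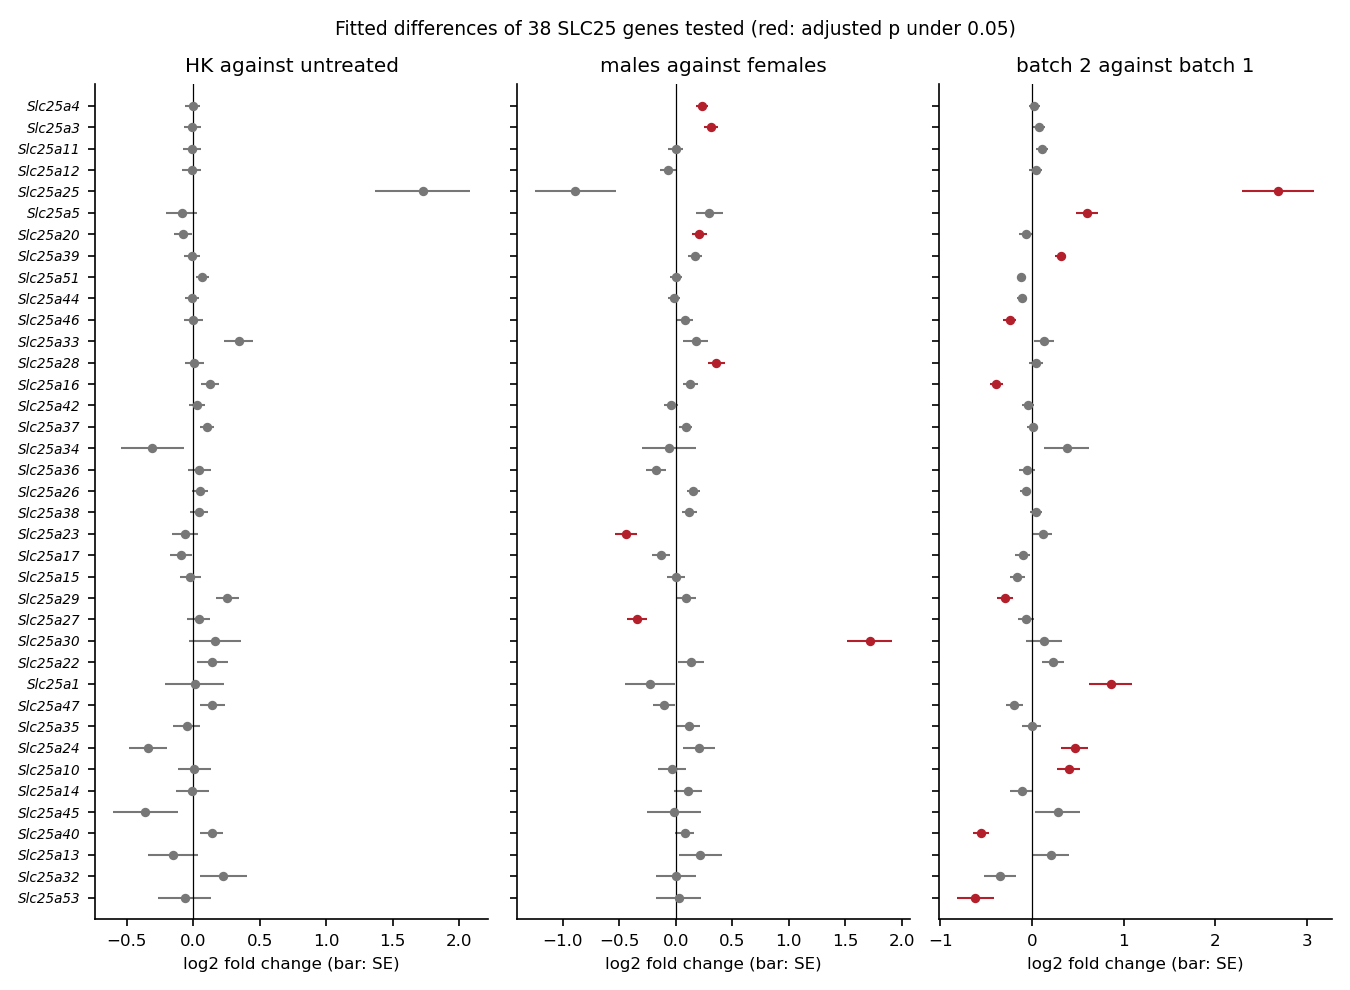
Fitted log2 differences of 38 of the 39 SLC25 genes tested, with standard errors as bars, for HK against untreated, males against females and batch 2 against batch 1, ordered by level. Red marks an adjusted p under 0.05, which 0 carriers reached for treatment, 7 for sex and 11 for batch, and Slc25a25 lies at 1.72 for treatment and 2.69 for batch.

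The pyrimidine nucleotide carrier Slc25a33 was at 15.1 to 30.6 CPM with HK (median 18.2) and at 12 to 18.9 CPM without (median 15.6). The groups overlapped, and the log2 difference was 0.34 ± 0.11 (unadjusted p = 0.0053, adjusted p = 0.795, edgeR). Its exons share 14.9% of their length with the antisense gene Gm13068, which had 0.0 counts on average. Slc25a29, a carrier of basic amino acids, was at 6.92 to 10.3 CPM with HK (median 8.11) and at 5.39 to 9.50 CPM without (median 6.80). Its log2 difference was 0.25 ± 0.09 (unadjusted p = 0.00843, edgeR), again with overlap of the groups. Taken alone, batch 1 gave 0.15 for Slc25a33 and 0.06 for Slc25a29, and batch 2 gave 0.48 and 0.40.

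Slc25a24, another calcium-regulated ATP-Mg/phosphate carrier, was at 2.92 to 5.59 CPM with HK (median 3.53) and at 3.01 to 8.29 CPM without (median 4.79). Its log2 difference of -0.34 ± 0.14 (unadjusted p = 0.0254, adjusted p = 0.795, edgeR) had the sign opposite to that of Slc25a25, also in each batch (-0.13 and -0.45). The mitoferrin Slc25a37, at 32.1 ± 1.74 CPM with HK and 29.8 ± 3.17 without, came next with 0.10 ± 0.06 (unadjusted p = 0.0774, edgeR). In ratios within each library, Slc25a24 over Slc25a25 differed by -1.96 on the log2 scale with HK (exact permutation p = 0.000278, adjusted over the 10 pairs 0.00278). Slc25a23 over Slc25a25 differed by -1.68 (exact permutation p = 0.00139, adjusted 0.00694). In batch 2 alone the adjusted p was 0.1 for both. Both ratios carry the difference of Slc25a25 itself. For the other 8 pairs of related carriers the two-sided exact permutation p for treatment, within sex and batch, was 0.074 or more.

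No member passed the test of a different effect of HK in males and females, beside 0% of the 13800 genes tested there, and the same held for a different effect in the batches. At an unadjusted p of 0.05 there were also 0 carriers in both, beside 3.5% and 3.01% of all genes. Markers of slow fibres had log2 differences below 0 with HK in 8 of 8 genes. Of these, 6 had an unadjusted p under 0.05 (edgeR), beside 3.35% of all genes, and 0 were called. Their summed level was 838 to 3832 CPM with HK and 895 to 6575 without. Other lists were of one sign too. Differences were above 0 in 0 of 8 macrophage, 0 of 6 endothelial and 0 of 6 fibro-adipogenic progenitor markers. They were above 0 in 6 of 6 fast glycolytic, 6 of 6 erythroid and 5 of 5 nerve and Schwann markers. Adipocyte markers were mixed (5 of 8 above 0). The part of these lists in the differences of the carriers was not tested.

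Between the sexes, 7 of the 39 carriers were called, beside 16.1% of all genes tested. In males 5 were higher, beside 8.79% of all genes, and 2 were lower, beside 7.33%. Slc25a30, a relative of the uncoupling proteins, was at 8.46 to 25.1 CPM in males (median 18.9, n = 10) and at 3.91 to 7.33 CPM in females (median 5.25, n = 10). Every male lay above every female, and the share of all genes that separated in this way was not counted. The log2 difference was 1.72 ± 0.20 (adjusted p = 3.7e-06, edgeR), and it was called in each treatment and each batch taken alone (1.91 in batch 1, 1.59 in batch 2). The 250 bases before its start (chr14:75787038-75787287, minus strand, GRCm38.p6, RefSeq) are shown because this was the only carrier whose values did not overlap between the sexes, with the CCAAT box at 52 bases before the start in capitals.
Slc25a30: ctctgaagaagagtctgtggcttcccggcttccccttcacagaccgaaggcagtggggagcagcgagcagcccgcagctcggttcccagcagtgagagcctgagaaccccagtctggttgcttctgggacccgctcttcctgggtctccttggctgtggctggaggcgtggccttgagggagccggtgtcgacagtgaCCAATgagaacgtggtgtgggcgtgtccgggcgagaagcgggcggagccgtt

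The other carriers higher in males included the leading ones of oxidative phosphorylation. Slc25a3 was at 641 to 878 CPM in males (median 761) and at 516 to 733 CPM in females (median 599), with a log2 difference of 0.31 ± 0.06 (adjusted p = 0.00171, edgeR). Slc25a4 was at 3209 to 4018 CPM in males (median 3627) and at 2680 to 3666 CPM in females (median 3136), with 0.23 ± 0.06 (adjusted p = 0.00766). Both overlapped between the sexes. The mitoferrin Slc25a28 was at 31.8 to 41.3 CPM in males (median 35.3) and at 22.8 to 34.5 CPM in females (median 28.1), with 0.36 ± 0.07 (adjusted p = 0.00196). The carnitine/acylcarnitine carrier Slc25a20 was at 66.6 to 85.2 CPM in males (median 78.0) and at 52.6 to 76.8 CPM in females (median 67.5), with 0.21 ± 0.07 (adjusted p = 0.0387). Its call was the least firm, being lost in 13 of the 20 fits that left out 1 mouse, with adjusted p of 0.0209 to 0.103. The 13 mice were HK females 2, 3, 4 and 5, HK males 1, 3, 4 and 5, untreated females 3 and 4, and untreated males 1, 4 and 5. Taken alone, batch 1 gave 0.03 for Slc25a20 and batch 2 gave 0.33.

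The other 3 of these differences were of one sign in both batches. They were 0.20 and 0.38 for Slc25a3, 0.24 and 0.22 for Slc25a4 and 0.48 and 0.27 for Slc25a28 in batches 1 and 2. With fewer mice only that of Slc25a3 in batch 2 and that of Slc25a28 in batch 1 were called. The sexes lay closer in mean TPM than in mean CPM for these carriers. Slc25a3 was at 371 TPM in males and 324 in females, and Slc25a4 at 4251 and 3918. Slc25a28 was at 26.2 and 22.1 TPM, and Slc25a20 at 43.1 and 40.4. The sex differences of single carriers were not tested in TPM.

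In females, Slc25a23, a calcium-regulated ATP-Mg/phosphate carrier, was at 19.1 to 31.3 CPM (median 23.1), against 13.8 to 25 CPM in males (median 16.4). The log2 difference of males against females was -0.44 ± 0.10 (adjusted p = 0.00397, edgeR). Slc25a27, an uncoupling protein best known from brain, was at 9.57 to 14.1 CPM in females (median 11.5) and at 7.73 to 11.5 CPM in males (median 9.36), with -0.34 ± 0.09 (adjusted p = 0.0115). Slc25a25 had -0.89 ± 0.36 and was not called (adjusted p = 0.0954), and it was called when HK male 3 (adjusted p = 0.0354) or untreated female 3 (0.044) was left out. In batches 1 and 2 the differences were -0.54 and -0.38 for Slc25a23, -0.23 and -0.43 for Slc25a27 and -1.64 and -0.46 for Slc25a25, of which those of Slc25a23 and Slc25a25 in batch 1 were called. The summed level of the family was 5631 ± 315 TPM in males and 5308 ± 354 in females. Slc25a4, the largest part of that sum, was at 4251 ± 217 TPM in males and 3918 ± 264 in females. The shuttle and dicarboxylate carriers went the other way, with 490 ± 37.8 TPM in males and 540 ± 55.2 in females.

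**Figure D4:**
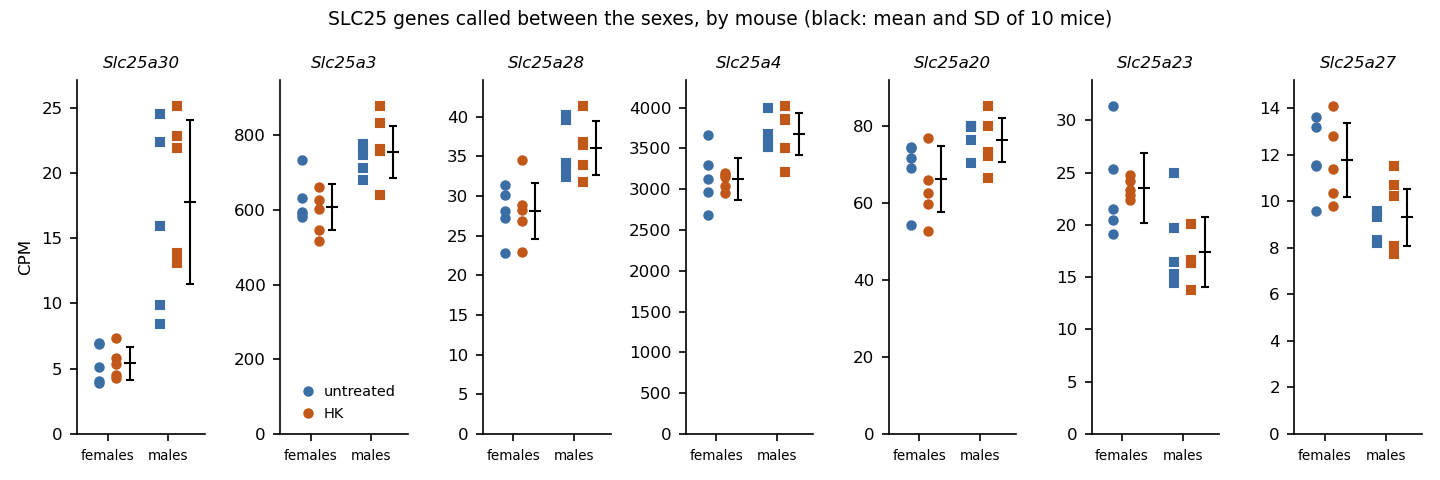
CPM of the 7 SLC25 genes called between the sexes, with 1 point per mouse (blue untreated, orange HK, circles females, squares males) and the mean and SD of 10 mice in black, on axes that start at 0. Slc25a30 in males, at 8.46 to 25.1 CPM, lies wholly above females at 3.91 to 7.33 CPM, whereas the other 6 genes overlap.

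Markers of other cells and fibres moved with sex as well. Of 8 slow fibre markers 7 were called lower in males (summed level 838 to 6575 CPM against 2631 to 5029), beside 7.33% of all genes. So were 7 of 8 adipocyte markers (2204 to 3994 against 4067 to 5175 CPM) and 3 of 5 of nerve and Schwann cells. Of the fast glycolytic and the general muscle fibre markers, 2 of 6 and 2 of 7 were called higher in males, beside 8.79% of all genes. The part of these lists in the sex differences of the carriers was not tested.

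Pairs of carriers with like function were compared as the log2 ratio of their TPM within each library, for 10 pairs. Slc25a14 over Slc25a30, both relatives of the uncoupling proteins, differed by -1.53 between males and females (two-sided exact permutation p = 0.000278, adjusted over the 10 pairs 0.00278). Slc25a28 over Slc25a37, the mitoferrins, differed by 0.27 (exact permutation p = 0.00597, adjusted 0.0299). By itself batch 2 gave -1.26 for the first pair (exact permutation p = 0.01) and 0.19 for the mitoferrins (p = 0.125). Batch 1, where 0.0556 is the smallest p that the permutations can give, had -1.92 and 0.40. These ratios use the same values as the sex differences above. Slc25a24 over Slc25a25 (0.92, exact permutation p = 0.0381) and Slc25a33 over Slc25a36 (0.36, p = 0.0467) did not pass adjustment (0.117 for both). Slc25a4 over Slc25a5, the ADP/ATP carriers, differed by -0.05 (exact permutation p = 0.699), which averaged 0.31 in batch 1 (exact permutation p = 0.0556) and -0.30 in batch 2 (p = 0.14).

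Between the batches, 11 of the 39 carriers were called, beside 37.1% of all genes tested. In batch 2, 6 were higher, beside 18.2% of all genes, and 5 lower, beside 19%. Slc25a25 had the largest of these differences, at 39.1 to 506 CPM in batch 2 (median 225, n = 12) and 9.45 to 155 CPM in batch 1 (median 22.5, n = 8), with a log2 difference of 2.69 ± 0.40 (adjusted p = 5.58e-05, edgeR). The batches overlapped only through 1 treated female of batch 1 at 155 CPM. Slc25a5 was at 18.9 to 40.4 CPM in batch 2 and 17.7 to 20.5 CPM in batch 1, with 0.60 ± 0.12 (adjusted p = 0.00086). Slc25a39 was at 41.6 ± 4.71 CPM in batch 2 and 33.4 ± 2.93 in batch 1, with 0.31 ± 0.06 (adjusted p = 0.000732). Its relative Slc25a40, also a glutathione carrier, was at 2.98 to 5.07 CPM in batch 2 and 5.08 to 6.01 CPM in batch 1, without overlap and with the opposite sign (-0.56 ± 0.08, adjusted p = 8.15e-05). Slc25a16 was at 32.9 ± 4.05 CPM in batch 2 and 43.1 ± 5.16 in batch 1, with -0.39 ± 0.07 (adjusted p = 0.000297).

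Of the remaining carriers called between the batches, Slc25a1 (log2 difference 0.86), Slc25a24 (0.47) and the dicarboxylate carrier Slc25a10 (0.40) were higher in batch 2, and Slc25a53 (-0.62), Slc25a29 (-0.29) and Slc25a46 (-0.24) were lower. Macrophage markers were called higher in batch 2 in 8 of 8 genes (64.6 to 297 CPM summed, against 21.1 to 69.7), beside 18.2% of all genes. Markers of fibro-adipogenic progenitors were called higher in 6 of 6 and those of erythroid cells in 5 of 6. Those of adipocytes were in 3 of 8, of muscle fibres in general in 3 of 7, of endothelial cells in 1 of 6 and of slow fibres in 0 of 8. Their part in the batch differences of the carriers was not tested.

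After batch, sex and treatment were fitted, the carriers that moved most closely together over the 20 mice included those in the pairs Slc25a5 and Slc25a24 (Pearson r = 0.82), Slc25a4 and Slc25a11 (0.80), Slc25a11 and Slc25a12 (0.80), Slc25a3 and Slc25a11 (0.77), and Slc25a20 and Slc25a34 (0.77). The lowest value was that of Slc25a1 and Slc25a34 (-0.75). The 4 most abundant carriers were thus among the pairs with the highest values. These correlations describe shared libraries and carry no test.

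Genes that work with the carriers were taken from a list of 37 partners, among them the pyruvate carrier, the porins, the carnitine and reducing-equivalent shuttles, creatine kinases and the calcium uniporter, and from 12 regulators of mitochondrial genes. Between treatments 0 of the 35 partners tested and 0 of the 12 regulators were called. The nuclear receptor gene Nr4a1 was at 347 ± 245 CPM with HK and 189 ± 127 without, with a log2 difference of 0.75 ± 0.24 (unadjusted p = 0.00588, edgeR). Its relative Nr4a3 was at 67.7 ± 78.7 CPM with HK and 33.9 ± 36.4 without, with 1.11 ± 0.44 (unadjusted p = 0.0206, edgeR). Like Slc25a25, both were called higher in batch 2 (1.57 and 3.15). They were among 6 of the 12 regulators called higher there, beside 18.2% of all genes. Gpd2, the mitochondrial glycerophosphate dehydrogenase, had 0.21 ± 0.09 (unadjusted p = 0.0301, edgeR).

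Between the sexes 8 of the 35 partners were called higher in males, beside 8.79% of all genes, and 1 lower, beside 7.33%. Of the 12 regulators 1 was called higher and 0 lower. The porin Vdac2, a channel of the outer membrane, was at 268 ± 20.5 CPM in males and 218 ± 12.4 in females, with a log2 difference of 0.29 ± 0.05 (adjusted p = 0.0002, edgeR). Vdac1, the main porin, was at 1506 ± 140 and 1307 ± 78.9 CPM, with 0.20 (adjusted p = 0.0142), and Mpc1, a subunit of the pyruvate carrier, was at 74.4 ± 7.60 and 64.3 ± 2.34 CPM, with 0.21 (adjusted p = 0.0099). Esrra, an orphan receptor that acts on oxidative genes, was at 109 ± 10.1 and 84.8 ± 7.37 CPM, with 0.36 ± 0.06 (adjusted p = 0.000345). Gpd2 was the 1 partner lower in males, at 217 ± 45.5 CPM against 304 ± 45.9 in females, with -0.51 ± 0.09 (adjusted p = 0.000634). Slc25a3, Slc25a4 and these porins thus had the same sign between the sexes.

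RefSeq gave promoter windows for 36 of the 47 carriers, 46 in all, and 7 motifs were searched on both strands. Besides the full CRE, its shorter form TGACG, which the full CRE contains on both strands, was in 11 of the 46 windows (23.9%) and in 17.8% of all windows. The E-box CACGTG was in 8 (17.4%, beside 6.02% of all), the ETS motif CCGGAAG in 6 (13%, beside 6.91%) and the CCAAT box in 21 (45.7%, beside 33.8%). The motif AAGGTCA of the estrogen-related receptors was in 1 window, that of Slc25a34, beside 4.08% of all, and TATAAA was in 2, beside 12.4%. Windows of 1 gene can overlap, and these shares are descriptions.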

How the data were processed

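Total RNA of the gastrocnemius of 20 mice was depleted of ribosomal RNA and sequenced (NEBNext kits, NextSeq 500). The authors checked reads with FastQC, aligned them to GRCm38.p6 with STAR 2.6.1c in two-pass mode, quantified genes of GENCODE M25 and normalised them with DESeq2 1.28.1. They deposited raw counts per gene, and those counts were used here. Neither the counting program nor the use of strand is named (both not given in the sources used here). Reads of genes that overlap on opposite strands therefore cannot be told apart. The exons of Slc25a35 share 31.3% of their length with Rangrf, which had the higher mean count (337.0 against 89.2).

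Groups came from the labels for treatment, sex and experimental batch. The titles of the 5 treated females carry the prefix HF and those of the treated males HK, with no reason given; the treatment label names Haenkenium for both. There were 0 columns of samples outside the series. Symbols and merged exon lengths came from GENCODE M21, which matched 55141 of 55401 identifiers; the 260 others held 0.00127% of the counts. Genes were filtered with filterByExpr, scaled by the trimmed mean of M-values and fitted with batch, sex and treatment by edgeR 4.0.16 (quasi-likelihood test, R 4.3.3), with Benjamini-Hochberg adjustment over all 13626 genes and a threshold of 0.05. On simulated data for the treatment comparison over 13626 genes, 100% of 100 genes changed by 1 on the log2 scale and 100% of 100 changed by 2 were recovered, with 4.76% false calls. Only genes above a set mean count were changed, and the extra quasi-likelihood spread of single genes was not simulated. This recovery is therefore not that of the real counts, where Slc25a25 at 1.72 was not called. Residuals used log2 CPM with a pseudocount of 2, and pair ratios used log2 TPM without a pseudocount. Pair ratios were tested by exact permutation of treatment labels within sex and batch, or of sex labels within treatment and batch (14400 arrangements, smallest p 0.000139). Alternatives were DESeq2 1.42.0, limma 3.58.1 (voom), other size factors, filters, covariates and length measures, single batches, sexes or treatments, a replicate block, and leaving out each mouse.

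The carriers and the lists were chosen with earlier results of these data known. Named genes were Slc25a25, the 8 carriers of highest level, the 5 of lowest p for treatment and for batch, all called for sex (up to 10), the 3 of smallest and largest residual spread, those without counts, partners and regulators past an unadjusted p of 0.05 for treatment or of lowest p for sex, and the 5 genes most like Slc25a25. Others are named to complete a role or a count and were chosen after their values were seen. In the counts, 1 carrier is included that is not reported here by name or drawn.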

Additional observations from a re-analysis of the deposited data

Results flagged for a closer look

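Single values stood far from the other mice of their group in 11 of 174 groups tested over 29 carriers (6.32%). For independent groups drawn from 1 normal population the rule gives about 1 in 20. The groups used here were nested (each treatment, and each sex within it) and pooled both batches, so that rate is only a rough guide. For Slc25a25, untreated female 5 was at 297 CPM, against 9.45 to 125 in the other untreated mice. The same mouse was at 29.5 CPM of Slc25a34, against 10.3 to 16.4 in the other untreated mice. For Slc25a20, untreated female 3 was at 54.3 CPM, against 69.1 to 80.1 in the other untreated mice, and it stood apart among the untreated females as well. HK female 5 was at 30.2 CPM of Slc25a5, against 18.3 to 20.3 in the other HK females.

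For Slc25a45, HK female 2 was at 0.967 CPM (others 1.53 to 1.70) and untreated female 2 was at 2.04 CPM (others 1.2 to 1.38). HK male 3 was at 18.6 CPM of Slc25a22, a glutamate carrier (others 9.53 to 13.7). Untreated male 4 was at 2.08 CPM of Slc25a13, the aspartate/glutamate carrier citrin (others 0.850 to 1.40), and at 6.62 CPM of Slc25a35 (others 4.18 to 5.47).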

How the results depend on the processing

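Over 440 fits of named carriers under another setting, 440 kept their direction and 398 their side of the threshold; 34 lost a call and 8 gained one. The log2 ratio of Slc25a4 over Slc25a5 between the sexes turned from -0.05 to 0.31 in batch 1 alone and ran from -0.13 to 0.017 when 1 mouse was left out (above 0 without untreated male 3 or 5); the cause was not tested. Of the other results recomputed, 0 turned sign. For treatment, DESeq2's Wald test called 1 carrier, and edgeR without a filter called 2 (Slc25a25 and Slc25a33). That last fit took its prior degrees of freedom as infinite (4.26 with the filter), and it gave 1 carrier with a different effect between the sexes, both adjusted and unadjusted. Among genes of at least 5 counts in all, a setting chosen after seeing the data, that unadjusted number was 1 (Slc25a21). Carriers at an unadjusted p of 0.05 for treatment numbered 1 in batch 1 alone and 2 in males alone, and 3 to 5 when 1 mouse was left out, beside 4. Carriers called for sex numbered 3 in HK mice alone, 1 in untreated mice alone and 4 in batch 2 alone, and 6 to 9 when 1 mouse was left out, beside 7; these fits held fewer mice. The share of Slc25a4 was 67.9% with coding length and 60.2% in CPM. Pairs past an exact permutation p of 0.05 for sex numbered 2 in batch 2 alone (Slc25a14 over Slc25a30, and Slc25a12 over Slc25a13, which was not among the 4), and 2 to 4 when 1 mouse was left out (2 without untreated male 1 or 2, HK male 1 or 2, or HK female 3), beside 4. In batch 1 alone the smallest possible p is 0.0556. Same-numbered mice did not deviate together (correlations of -0.33 to 0.23 between treatments and -0.48 to 0.04 between sexes). With the replicate number as a block, 0 carriers were called for treatment (4 at an unadjusted p of 0.05) and 7 for sex, of which 6 were shared: Slc25a20 was lost and Slc25a39 gained.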
